A study of Rattus norvegicus with 6 samples.

Results

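Interferon-stimulated genes, the genes that cells switch on after interferon binds its receptors, were followed in the kidney of diabetic rats with and without treatment by Qishen Yiqi dripping pill (QYDP), a herbal preparation. The set was a list of 44 genes of the interferon response, each represented by its array row paired with exactly 1 gene symbol and, where several rows qualified, by the row with the highest mean. By this rule 39 of the 44 genes had a row, among 18166 genes in all. Eif2ak2, Samd9, Oas3, Bst2 and Parp12 are not analysed here.

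The study used male Sprague-Dawley rats made diabetic with 60 mg/kg of streptozotocin, a toxin of the insulin-secreting beta cells. The DM group received saline and the HQYDP group received 300 mg/kg/day of QYDP by gavage for 8 weeks, and the labels give an age of 17 weeks for every sample. RNA of the kidney cortex was hybridized to Affymetrix Rat Gene 2.0 ST arrays, with 3 arrays in each group. Both groups received the same streptozotocin dose, and no array of a rat without diabetes was analysed here. The labels number the samples of a group without naming the animal, so the p-values measure the spread between these samples.

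Type I interferons signal through the receptor of Ifnar1 and Ifnar2 and lead to a complex that holds Stat2 and Irf9 and binds the interferon-stimulated response element (ISRE). Interferon gamma signals through Ifngr1 and Ifngr2 and acts on genes that carry the gamma-activated site (GAS). The induced proteins block viral entry, translation and replication, sense foreign nucleic acids, and feed back on the pathway itself. In the kidney both resident cells and infiltrating leukocytes can carry this response.

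To show what these genes have in common in their sequence, the RefSeq promoters of the rat build GRCr8 were searched from 250 bases before to 50 after each gene's start. The promoter table held 30 of the 39 genes. The ISRE core, taken as GAAA, any 2 bases and GAAA again and searched on both strands, was found in 19 of these 30 promoters, or 63.3%, against 3.92% of the 33469 promoters in the table. The GAS core, written TTCNNNGAA, reads the same on both strands and can share bases with the ISRE core. It was found in 8 of the 30, or 26.7%, against 8.87% of all promoters. Both cores were found in 5 promoters and neither in 8. A match describes letters in the window and not a bound site.

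The sequences below carry the genes on which the results turn, each read on the gene's own strand with the core in capitals. Irf1 and Irf9 held a GAS core and no ISRE core, while Gbp2, Gbp5, Ifih1 and Parp14 held an ISRE core. Parp14 also held a GAS core ending just before its ISRE core. Oas1a and Oas1b each held overlapping ISRE cores, printed as 1 run of capitals, and also a GAS core farther upstream that is not printed. In Dtx3l the ISRE core lay past the start and is not printed.
Irf1, GAS core, chr10:38417778-38417816, plus strand, GRCr8: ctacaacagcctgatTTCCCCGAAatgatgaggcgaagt
Irf9, GAS core, chr15:33065722-33065760, plus strand, GRCr8: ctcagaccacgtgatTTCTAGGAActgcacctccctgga
Gbp2, ISRE core, chr2:234005681-234005720, plus strand, GRCr8: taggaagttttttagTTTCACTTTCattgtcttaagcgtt
Gbp5, ISRE core, chr2:233910928-233910967, plus strand, GRCr8: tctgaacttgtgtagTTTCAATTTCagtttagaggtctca
Ifih1, ISRE core, chr3:67684003-67684042, minus strand, GRCr8: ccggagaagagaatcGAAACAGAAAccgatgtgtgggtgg
Parp14, ISRE core, chr11:78408043-78408082, plus strand, GRCr8: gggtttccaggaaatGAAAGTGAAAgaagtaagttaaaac
Oas1a, ISRE core, chr12:41330410-41330455, plus strand, GRCr8: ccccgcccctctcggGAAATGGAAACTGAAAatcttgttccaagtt
Oas1b, ISRE core, chr12:41395881-41395926, minus strand, GRCr8: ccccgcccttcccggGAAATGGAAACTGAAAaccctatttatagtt

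The tissue matched its label, since proximal tubule markers were among the bright rows, with mean log2 values in the DM group of 11.7 for Lrp2 and 12.1 for Slc34a1. DM replicate 2 stood apart from the other arrays. On the first principal component, which held 35.7% of the variance, it scored 39.5 and DM replicate 1 scored 17.9, while DM replicate 3 scored -14.9 and the HQYDP arrays lay between -16.2 and -10.6. Every DM array, and no HQYDP array, is marked in the labels as a re-analysis, so that mark and the treatment cannot be told apart. Values without DM replicate 2 are therefore given beside the results they move most.

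Most of the interferon-stimulated genes read slightly lower in HQYDP than in DM, and few of the differences exceeded the spread between arrays. The median log2 difference, HQYDP minus DM, was -0.17 over the 39 genes, against -0.0017 over all genes tested, and 27 of the 39 (69.2%) lay below 0 against 50.3% of all genes. The differences ranged from -0.62 for Dtx3l to 0.38 for Oas1a. At the study's thresholds, an unadjusted p below 0.05 and a fold above 1.5, 2 of the 39 were lower in HQYDP, Dtx3l and Irf1, against 1.82% of all genes. None was higher, against 1.46% of all genes. No member had an adjusted p below 0.05 in the limma fit, whose lowest adjusted p among them was 0.512. An unadjusted limma p below 0.05 was reached by 3 of the 39, against 1340 of all 18166 genes. An exact permutation test of 1 gene cannot go below 0.1 with 3 arrays against 3, so no such test is given. Over all 18166 genes, 3 passed after adjustment.

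**Figure D1:**
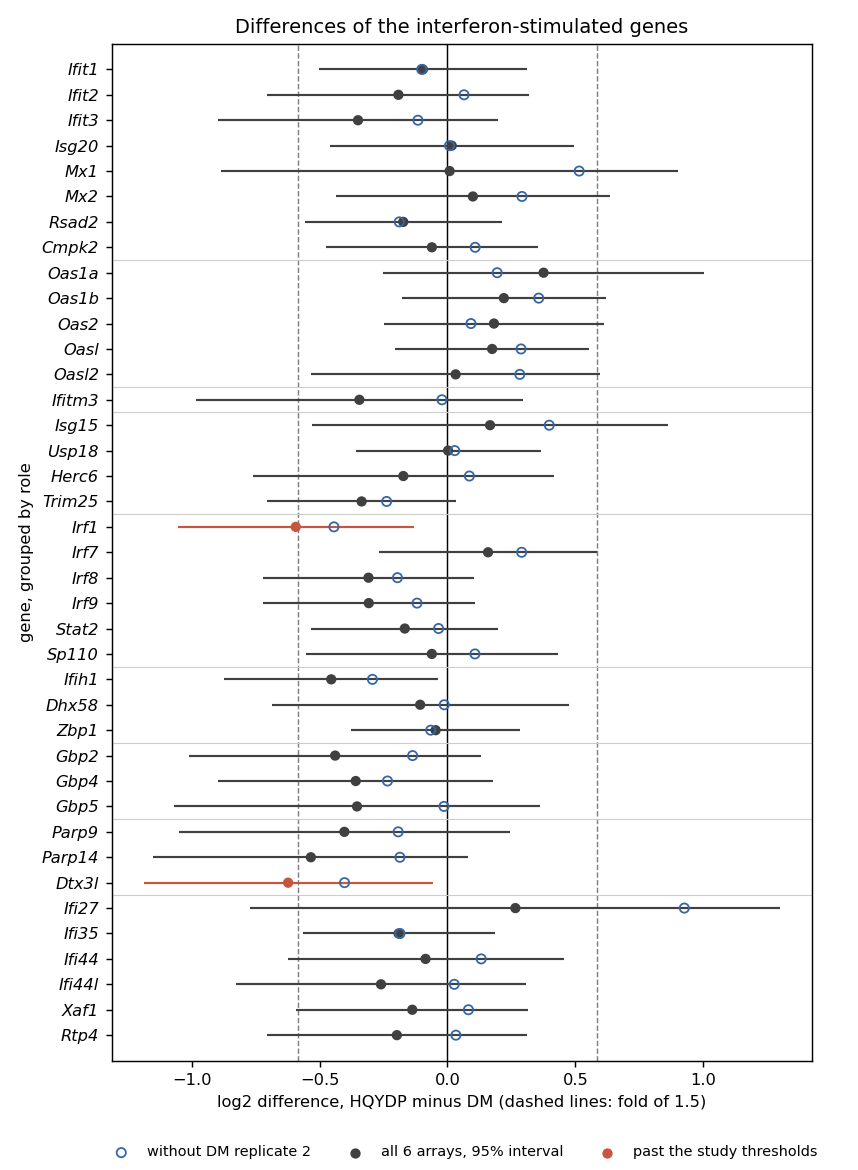
Log2 difference between HQYDP and DM for each of the 39 interferon-stimulated genes, grouped by role, with 95% limma intervals from all 6 arrays (filled points) and the difference without DM replicate 2 (open points). Dtx3l at -0.62 and Irf1 at -0.59 are the genes past the study thresholds, and the OAS family is the only role with all its filled points above 0.

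Groups without overlap are another way to read 3 arrays against 3. Irf9 and Ifih1 were lower in every HQYDP array than in any DM array, which is 2 of 39 against 6.01% of all genes. No member was higher in every HQYDP array, against 6.08% of all genes. For most members the interval of the difference was wide. The 95% interval lay within a fold of 1.5 in both directions for 10 of 39 (25.6%), against 57.7% of all genes.

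The DM arrays differed widely among themselves. DM replicate 2 was the highest of the 6 arrays for 25 of the 39 genes (64.1%), against 20.7% of all genes. It was above all HQYDP arrays for 26 (66.7%), against 29.2% of all genes. DM replicate 3 lay within the HQYDP range for 21 genes (53.8%), against 44.2% of all genes. It lay below that range for 12 of the 39, against 5275 of all 18166 genes. The SD was larger in DM than in HQYDP for 32 of the 39 (82.1%), against 64.4% of all genes, with medians of 0.354 and 0.204.

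The score of an array, its mean log2 deviation over the 39 genes, was -0.05, -0.19 and 0.02 in HQYDP replicates 1, 2 and 3. It was -0.03, 0.42 and -0.17 in DM replicates 1, 2 and 3. DM replicate 2 was thus far above the rest, and DM replicates 1 and 3 both lay inside the HQYDP range. Without DM replicate 2 the median difference of the members was 0.0079, with 19 genes below 0 and 20 above. No member was then called lower, against 1.21% of all genes, and Ifi27 was called higher, against 1.57% of all genes.

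**Figure D2:**
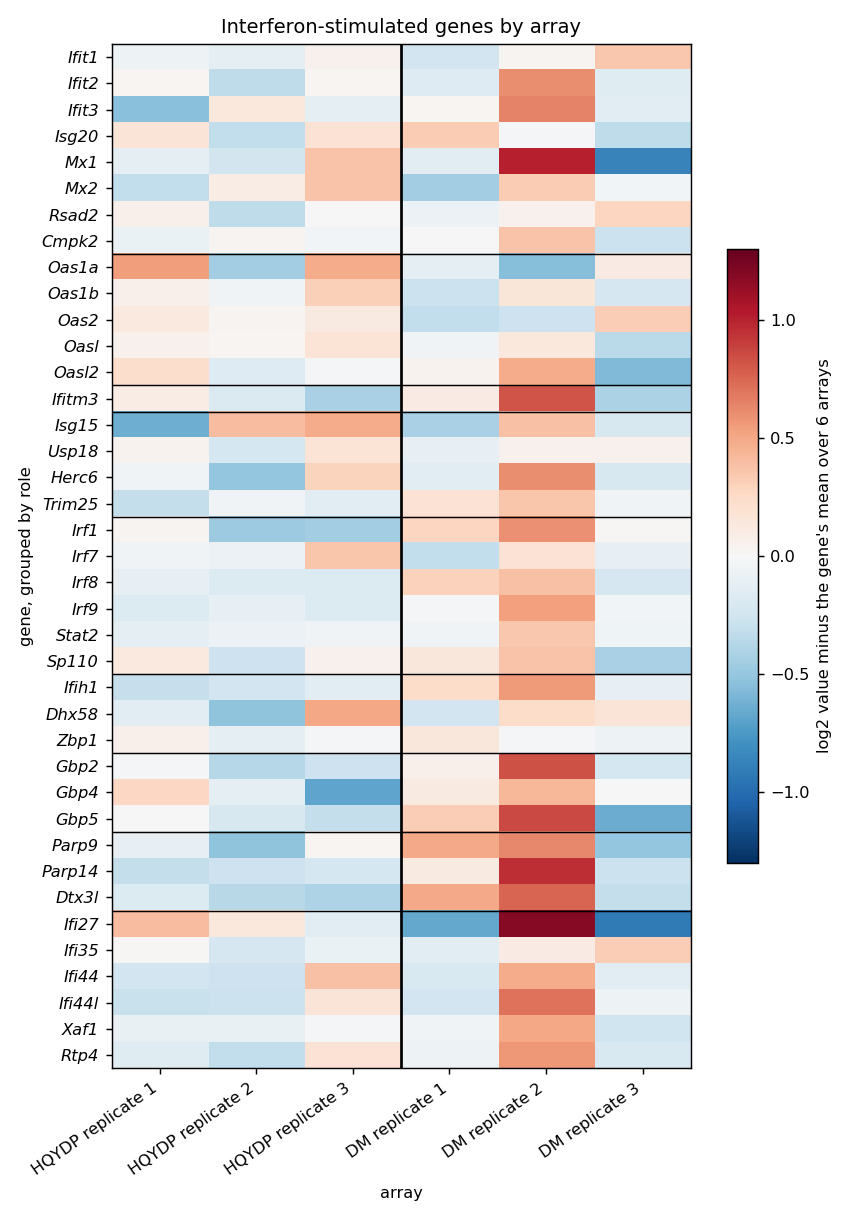
Log2 value minus the gene's mean over the 6 arrays, for 39 interferon-stimulated genes (rows, grouped by role) and 6 arrays (columns, with HQYDP left of the line and DM right of it). DM replicate 2 is the highest array for 25 of the 39 genes.

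The first genes of the response are its signalling proteins. Stat2, a subunit of the type I complex, read 6.27, 6.33 and 6.36 on the log2 scale in HQYDP replicates 1 to 3 and 6.36, 6.75 and 6.35 in DM replicates 1 to 3. Apart from DM replicate 2, the arrays of Stat2 lay within a narrow band. Its difference was -0.17 ± 0.16 (SE), with a limma p of 0.331 and an adjusted p of 0.928, and it was -0.03 without DM replicate 2.

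Irf9, the DNA-binding subunit of that complex, read 5.79, 5.86 and 5.78 in HQYDP and 5.93, 6.49 and 5.92 in DM. All DM arrays of Irf9 were above all HQYDP arrays, and DM replicate 2 was the highest. The difference was -0.31 ± 0.18 (SE), with a limma p of 0.128 and an adjusted p of 0.826, and it was -0.12 without DM replicate 2.

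Irf7, the factor that amplifies interferon production, read 5.58, 5.55 and 5.99 in HQYDP and 5.31, 5.81 and 5.52 in DM. The groups overlapped, and the difference of 0.16 ± 0.19 (SE) was opposite in sign to that of Stat2 and Irf9 (limma adjusted p = 0.952). Irf7 was the only one of the 6 transcription factors above 0.

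Irf1, a factor strongly induced by interferon gamma, read 6.02, 5.51 and 5.53 in HQYDP and 6.26, 6.58 and 6.0 in DM. The groups overlapped narrowly, since HQYDP replicate 1 exceeded DM replicate 3. Irf1 was 1.51-fold lower in HQYDP (log2 difference -0.59 ± 0.21, SE, unadjusted limma p of 0.0169, adjusted p = 0.512). The call was lost without HQYDP replicate 2 (-0.50), without HQYDP replicate 3 (-0.52) and without DM replicate 2 (-0.44), as well as with quantile normalization (-0.55) and in the methods' t-test. Irf8, a factor of myeloid cells, differed by -0.31, and Sp110, a nuclear body protein, by -0.06. Neither passed the test.

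The PARP genes and their partner lie next to each other on chromosome 11 in the order Parp9, Dtx3l and Parp14. Dtx3l, an E3 ubiquitin ligase that works with Parp9, read 5.55, 5.36 and 5.32 in HQYDP and 6.21, 6.47 and 5.41 in DM. DM replicates 1 and 2 were well above the HQYDP arrays and DM replicate 3 lay among them. Dtx3l was 1.54-fold lower in HQYDP (log2 difference -0.62 ± 0.25, SE, unadjusted limma p of 0.0341, adjusted p = 0.608). The call was lost on leaving out HQYDP replicate 2 (-0.60), HQYDP replicate 3, DM replicate 1 or DM replicate 2 (-0.40), and in the methods' t-test.

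Parp9, a macrodomain protein of the same complex, read 6.21, 5.79 and 6.34 in HQYDP and 6.80, 6.94 and 5.81 in DM. Its arrays were ordered much as those of Dtx3l, with DM replicate 3 inside the HQYDP range. The difference was -0.40 ± 0.29 (SE, limma adjusted p = 0.873). Parp14, a mono-ADP-ribosyltransferase, read 6.42, 6.46 and 6.51 in HQYDP and 6.85, 7.69 and 6.45 in DM. The HQYDP arrays were tightly grouped, and DM replicate 3 lay among them. The difference of Parp14 was -0.53 ± 0.27 (SE, limma adjusted p = 0.752). None of the 3 genes was called without DM replicate 2, and the differences were -0.19 for both Parp9 and Parp14. Without DM replicate 3 all 3 were called lower, at -0.93 for Dtx3l, -0.81 for Parp14 and -0.76 for Parp9. In that fit 4.02% of all genes were called lower, against 1.82% with all 6 arrays.

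The guanylate-binding proteins are GTPases that act against intracellular pathogens and are induced mainly by interferon gamma. Gbp2 read 4.76, 4.40 and 4.51 in HQYDP and 4.84, 5.60 and 4.54 in DM. DM replicate 2 was the highest by a wide margin, and DM replicate 3 lay inside the HQYDP range. The difference was -0.44 ± 0.25 (SE, limma adjusted p = 0.807), and -0.14 without DM replicate 2.

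Gbp4, the neighbour of Gbp2 on chromosome 2, read 4.08, 3.69 and 3.14 in HQYDP and 3.93, 4.24 and 3.81 in DM. Here the widest spread was in HQYDP, and the groups overlapped. The difference was -0.36 ± 0.24 (SE, limma adjusted p = 0.851), and -0.23 without DM replicate 2. Gbp5, which also takes part in inflammasome activation, differed by -0.35. It ranged in DM from 4.22 in replicate 3 to 5.72 in replicate 2, and its difference was -0.01 without DM replicate 2.

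Among the nucleic acid sensors, Ifih1, which encodes the double-stranded RNA sensor MDA5, read 5.57, 5.62 and 5.73 in HQYDP and 6.10, 6.41 and 5.76 in DM. All DM arrays were above all HQYDP arrays, though DM replicate 3 was only just so. The difference was -0.45 ± 0.19 (SE), with a limma p of 0.0359 and an adjusted p of 0.617, and lay below a fold of 1.5. With 1 array left out, its unadjusted p stayed below 0.05 only without DM replicate 3, where it was called lower at -0.62. Without DM replicate 2 the difference was -0.29, with an unadjusted limma p of 0.123. Dhx58, which encodes the regulator LGP2, differed by -0.11, and Zbp1, a sensor of Z-form nucleic acid, by -0.05. Their groups overlapped.

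**Figure D3:**
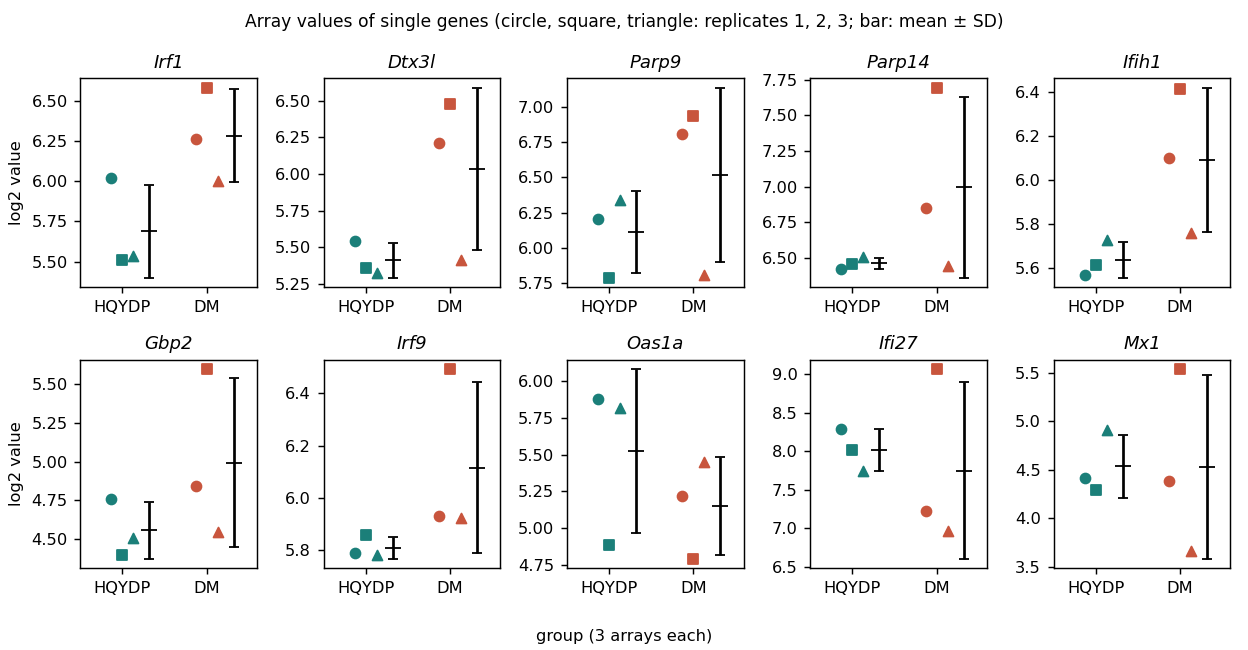
Log2 values of 10 interferon-stimulated genes in the 3 HQYDP and 3 DM arrays, with circle, square and triangle for replicates 1, 2 and 3 and bars for the mean ± SD. Irf9 and Ifih1 are the genes whose groups do not overlap, and each panel has its own axis, which does not start at 0.

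The OAS family lay above 0 while most of the set lay below. These enzymes make 2'-5' oligoadenylates, which activate RNase L. All 5 measured members had a positive log2 difference, against 9021 of all 18166 genes, with a median of 0.18, and none passed the test. Oas1b (means of 3.82 in HQYDP and 3.60 in DM) and Oas2 (3.89 and 3.71) were dim. Their means lay below 4.17, the 25th percentile of gene means. The signs held with quantile normalization and with median centring, while Oasl2 turned below 0 without HQYDP replicate 1 or DM replicate 3. Oas1a read 5.88, 4.88 and 5.82 in HQYDP and 5.22, 4.79 and 5.45 in DM. HQYDP replicate 2 lay with the DM arrays while the other HQYDP arrays were above them all. The difference of Oas1a was 0.38 ± 0.28 (SE, limma adjusted p = 0.879), and without HQYDP replicate 2 it was called higher, at 0.70 (unadjusted limma p of 0.0122).

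The other family members gave 0.22 for Oas1b, 0.18 for Oas2, 0.17 for Oasl and 0.03 for Oasl2. Oas1a and Oas1b are close paralogues, and the share of probe sequence they have in common was not analysed here. DM replicate 2 was not the highest DM array for Oas1a or Oas2, and the OAS score of the DM arrays was -0.14, -0.01 and -0.14. The HQYDP scores of the family were 0.20, -0.12 and 0.21, so the groups overlapped. The promoters of Oas1a, Oas1b and Oasl2 held an ISRE core and that of Oasl held none, while Oas2 was not among the 30. Whether a core goes with the sign of a difference was not tested.

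The 8 blockers of viral translation and replication showed differences between -0.35 and 0.10, and none passed the test. They comprised Ifit1 at -0.10, Ifit2 at -0.19 and Ifit3 at -0.35, which bind viral RNA or translation factors, and the exonuclease Isg20 at 0.02. The dynamin-like GTPases gave 0.01 for Mx1 and 0.10 for Mx2. The adjacent genes Rsad2, which encodes viperin, and Cmpk2, a nucleotide kinase, gave -0.17 and -0.06. Mx1 had a wide DM spread (SD 0.95), with DM replicate 2 the highest array at 5.54 and DM replicate 3 the lowest at 3.66, on either side of all HQYDP arrays.

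In the ISG15 and ubiquitin system, Trim25, an E3 ligase for RIG-I and ISG15, was the brightest member by mean log2 value. Trim25 read 8.35, 8.62 and 8.52 in HQYDP and 8.85, 9.03 and 8.62 in DM. The lowest DM array was about level with the highest HQYDP array. The difference was -0.34 ± 0.17 (SE, limma adjusted p = 0.732). The ubiquitin-like protein Isg15 differed by 0.17, its protease Usp18 by 0.0023 and the ligase Herc6 by -0.17. Usp18 had a second single-gene row of lower mean, and that row gave a difference of 0.69.

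Ifitm3, which restricts viral entry at the endosomal membrane, read 7.07, 6.79 and 6.55 in HQYDP and 7.09, 7.79 and 6.57 in DM. Both groups covered the same range except for DM replicate 2, which was the highest. The difference was -0.34 ± 0.28 (SE, limma adjusted p = 0.907), and it was -0.02 without that array. The second row of Ifitm3 gave -0.13.

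Ifi27, a small interferon-induced membrane protein, had the widest spread of all members in DM, with an SD of 1.15. It read 8.29, 8.02 and 7.74 in HQYDP and 7.22, 9.07 and 6.96 in DM. DM replicates 1 and 3 were below every HQYDP array and DM replicate 2 was above them all. Over all arrays the difference was 0.27 ± 0.46 (SE, limma adjusted p = 0.973). Without DM replicate 2 Ifi27 was higher in HQYDP, at 0.93 (unadjusted limma p of 0.00187), with 0.516 the lowest adjusted p of any member in that fit. The remaining induced genes lay between -0.26 and -0.09, with Ifi44l at -0.26, Rtp4 at -0.20, Ifi35 at -0.19, the apoptosis regulator Xaf1 at -0.14 and Ifi44 at -0.09. None of them passed the test.

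The rest of the pathway was read from 4 further lists, of which 71 of 88 genes had a row. At the study's thresholds 6 of the 71 were lower in HQYDP, against 1.82% of all genes, and none was higher, against 1.46%. Without DM replicate 2 the count of lower genes was 3, against 1.21% of all genes in that fit. Ifnar2 is not analysed here. The interferon genes themselves went both ways, from -0.37 for Ifnl3 to 0.46 for Ifna5, with -0.05 for Ifnb1 and -0.21 for Ifng, and none passed the test. The alpha interferons gave -0.30 for Ifna1, 0.11 for Ifna2 and 0.06 for Ifna4. They are close paralogues whose shared probe sequence was not analysed here. The rows of Ifna5 (means of 3.42 in HQYDP and 2.95 in DM), Ifna1 (2.76 and 3.06) and Ifng (3.80 and 4.01) were dim. Their means lay below 4.17, the 25th percentile of gene means. Among the receptors, Ifnar1 differed by -0.30, Ifngr2 by -0.47, the lambda receptor chain Ifnlr1 by -0.45 and its partner Il10rb by 0.08, and none of these passed both thresholds.

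Ifngr1, the ligand-binding chain of the interferon gamma receptor, read 7.79, 7.87 and 8.02 in HQYDP and 8.43, 9.03 and 8.12 in DM. Every DM array was above every HQYDP array, and the difference of -0.64 ± 0.22 (SE) was called lower (unadjusted limma p of 0.0185, adjusted p = 0.524). Socs3, a feedback inhibitor of cytokine receptors, was called lower at -1.60 (unadjusted limma p of 0.0123, adjusted p = 0.483). Its log2 value in DM replicates 1 to 3 was 6.96, 8.30 and 5.65, all above the HQYDP arrays.

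Of the 38 measured genes on the list of other induced genes, 4 were called lower, against 1.82% of all genes. They were the chemokines Cxcl10 at -1.03 and Cxcl11 at -1.08, which attract T cells, and the immunoproteasome subunits Psmb8 at -0.71 and Psmb10 at -0.79. The lowest adjusted p of these 4, for Psmb10, was 0.401 in the limma fit. Without DM replicate 2 the pathway genes still called lower were Socs3 at -0.93, Psmb10 at -0.64 and Cxcl10 at -0.60. The calls of Cxcl11 (-0.69), Ifngr1 (-0.39) and Psmb8 (-0.37) were lost, with unadjusted limma p-values of 0.0777, 0.0549 and 0.129. None of the 8 measured sensors and adaptors passed.

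**Figure D4:**
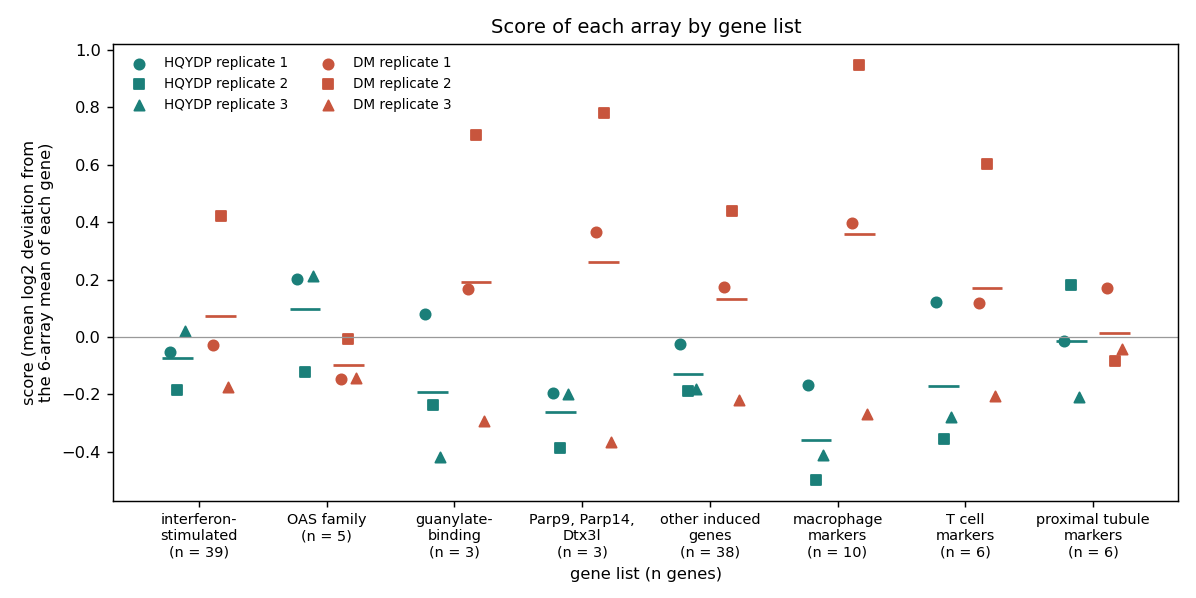
Score of each array (mean log2 deviation from each gene's mean over the 6 arrays) for the interferon-stimulated genes, 3 of their roles, the other induced genes and 3 lists of cell type markers, with horizontal bars at the group means. DM replicate 2 is the highest array for the interferon-stimulated genes at 0.42 and for the macrophage markers at 0.95, and DM replicate 3 lies at -0.17 and -0.27.

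Markers of macrophages also read highest in DM replicate 2. Of 10 macrophage markers, 7 were called lower in HQYDP, against 1.82% of all genes, and all 10 lay below 0, against 50.3%, with a median of -0.74. The median was -0.43 without DM replicate 2, with 9 of 10 below 0. Without DM replicate 2, 2 of the 10 were called, against 1.21% of all genes, as were 2 without HQYDP replicate 2, against 1.45%. The calls numbered 3 without HQYDP replicate 3 (1.76% of all genes) or DM replicate 1 (1.87%). They numbered 7 without HQYDP replicate 1 (2.02%) and 9 without DM replicate 3 (4.02%). In the methods' t-test 0 of these markers were called, against 0.655% of all genes. Their score ranged from -0.50 to -0.17 in HQYDP and was 0.40, 0.95 and -0.27 in DM replicates 1 to 3. In the same DM arrays the score was 0.17, 0.70 and -0.29 for the guanylate-binding proteins and 0.37, 0.78 and -0.37 for Parp9, Parp14 and Dtx3l. DM replicate 1 was also above DM replicate 3 for Ifitm3 (0.11, 0.82 and -0.41) and for the transcription factors (0.05, 0.40 and -0.14). The gap was smaller for the IFIT and other blockers (-0.09, 0.38 and -0.15) and the nucleic acid sensors (0.04, 0.26 and 0.0027). Replicates 1 and 3 were nearly level for the ISG15 and ubiquitin system (-0.12, 0.35 and -0.10). They were so too for the other induced members (-0.23, 0.59 and -0.21) and, as above, for the OAS family. Ptprc, the CD45 antigen of all leukocytes, was called lower at -0.91. None of 6 T cell markers was called, and their score was highest in DM replicate 2, at 0.60. DM replicate 2 also had the highest score for 3 B cell markers (0.39) and 3 NK cell markers (0.44), of which none was called. Its score was highest, at 0.38, for the 2 measured endothelial markers as well, and neither was called. Of these, Cdh5 was highest in DM replicate 2 and Emcn in HQYDP replicate 1. The 3 neutrophil markers did not follow DM replicate 2, with DM scores of 0.28, 0.04 and -0.0017 and 0.28 in HQYDP replicate 3. Umod of the thick ascending limb was called higher in HQYDP, at 0.65 (unadjusted limma p of 0.00208, adjusted p = 0.297). Slc12a1 of that segment (0.20) and Nphs1 of podocytes (0.49) were not called. Every HQYDP array of Umod and Nphs1 was above every DM array, against 6.08% of all genes. None of 6 proximal tubule markers was called, with 4 below 0 and 2 above. The part of these cells in the members' values was not tested, and in bulk tissue fewer cells of a type and less RNA per cell cannot be told apart.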

How the data were processed

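Kidney RNA of 3 HQYDP and 3 DM samples was measured on 1 array each. The authors deposited log2 values, 1 column per array, for 36685 rows. Their span fits a log2 scale, which no source states. The sources used here do not give the software, summarization or normalization. The 6 arrays had like medians and quartiles. Arrays carry no read counts, so their number limits the precision. By the platform annotation 18511 rows had 1 gene symbol, 575 had several and 17599 had none, and the row of highest mean stood for each of 18166 genes. All 39 members matched RefSeq of GRCr8 by Entrez ID with no change of symbol.

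HQYDP was compared with DM with limma 3.58.1 under R 4.3.3, using two-sided tests from lmFit and eBayes, with no filter, pseudocount or covariate and Benjamini-Hochberg adjustment over all genes. The study's thresholds were applied to the limma p. The study's methods name a t-test for differences between groups and do not state which test was used for the arrays. The fit was tested on simulated data. The members and lists were chosen with earlier results of these data known, so they are described by counts and medians, with no test over a list. Every member is named. Array values are given for members past the study thresholds, the 8 with the largest difference, the 3 with the highest mean, and Stat2, Irf7 and Irf9. Other pathway genes are named with values if past the thresholds, along with Ifnar1, Ifngr1, Ifngr2, Ifnb1 and Ifng. Further ligands and receptors were named after their values were seen. Alternatives were the methods' t-test, an intensity trend, a replicate block, quantile normalization, median centring, a filter on dim genes, the mean of a gene's rows, no fold minimum, and leaving out each array.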

Additional observations from a re-analysis of the deposited data

How the results depend on the processing

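With 3 arrays a group, single arrays decided most counts. On leaving out each array in turn, the members called lower numbered 0 to 8 and those called higher 0 to 1. The pathway genes called lower numbered 3 to 13 and those called higher 0 to 1, and all genes called lower numbered 219 to 730. The 8 members called lower without DM replicate 3 were Dtx3l, Gbp2, Gbp5, Ifih1, Ifitm3, Irf1, Parp14 and Parp9, against 4.02% of all genes, and 0.0534 was then their lowest adjusted p by limma. The methods' t-test called 159 genes higher and 119 lower, with 0 members (after adjustment also 0 genes) and 1 pathway gene lower. With no fold minimum 658 genes were higher and 682 lower, and 10 pathway genes were lower. Quantile normalization left 1 member lower, Dtx3l. For these changes the cause was not tested.

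The sign of the difference reversed for 18 members when 1 array was left out, none of them called at the reversed sign. Their ranges were -0.24 to 0.056 for Ifit1, -0.32 to 0.065 for Ifit2, -0.14 to 0.18 for Isg20, -0.42 to 0.51 for Mx1, -0.10 to 0.29 for Mx2, -0.22 to 0.11 for Cmpk2, -0.25 to 0.28 for Oasl2, -0.033 to 0.52 for Isg15, -0.085 to 0.11 for Usp18, -0.36 to 0.085 for Herc6, -0.29 to 0.11 for Sp110, -0.39 to 0.13 for Dhx58, -0.0897 to 0.015 for Zbp1, -0.13 to 0.93 for Ifi27, -0.30 to 0.13 for Ifi44, -0.45 to 0.026 for Ifi44l, -0.30 to 0.082 for Xaf1 and -0.34 to 0.033 for Rtp4. The other 21 members kept their sign under every alternative. Of 501 values of members under the alternatives, 451 kept their direction and side of the thresholds. The median difference of the members lay between -0.29 (without DM replicate 3) and 0.0079 (without DM replicate 2), and was -0.13 with quantile normalization.

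Same-numbered samples did not deviate together (correlations of 0.142, -0.083 and 0.21), and 3 of 6 arrays correlated best with their own number. The replicate block gave 287 genes higher and 374 lower, with the same 2 members and 8 pathway genes lower, and changed no call of a member. The filter on dim rows, those with a mean log2 value below 4.17, kept 33 of the 39 members. Ifit3, Oas1b, Oas2, Isg15, Gbp4 and Rtp4 were dropped.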
